A study of Mus musculus with 67 samples.

Results

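The accessible elements at 10 loci of the FGF-ERK negative feedback system, Spry1, Spry2, Spry4, Dusp4, Dusp6, Etv1, Etv4, Etv5, Spred1 and Spred2, were followed from NMPs to ventral NPs. The members were the elements in the deposited table of accessibility values whose nearest TSS, in the deposited annotation, belonged to one of these genes. There were 131 of them among 111638 elements in all. Spred2 had 29, Dusp6 17, Etv1 15, Dusp4 14, Etv5 12, Spry2 11, Spry4 10, Spred1 9, Etv4 8 and Spry1 6. Each element is named by its gene and by the distance from its centre to the TSS, with negative values upstream. Assignment was by nearest TSS alone, so an element may act on another gene or on none.

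FGFs bind receptor tyrosine kinases, whose adaptors and exchange factors load Ras with GTP, and a kinase cascade of RAF and MEK then phosphorylates ERK. ERK signalling switches on its own inhibitors. Sprouty and Spred proteins act between the receptor and RAF, and the dual-specificity phosphatases encoded by Dusp4 and Dusp6 remove phosphate from ERK itself. Etv1, Etv4 and Etv5 encode the PEA3 subfamily of ETS factors, which carry the response to target genes. Transcription of these genes is widely used as a readout of FGF activity, and in the caudal embryo FGF and WNT maintain NMPs while retinoic acid and withdrawal of FGF accompany neural differentiation.

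The series held 67 ATAC-seq samples of progenitors derived from the mouse ES cell line HM1. All cells received bFGF up to day 3, first with LGK974 to hold WNT ligands back and, for the last day, with the GSK3 inhibitor CHIR99021 and the inhibitors SB-431542 and DMH1 of the TGFβ and BMP pathways. From day 3 they received 100 nM retinoic acid with the Shh agonist SAG at 0, 10, 100 or 500 nM. In CaTS-ATAC, cells were fixed with formaldehyde, tagmented, stained for intracellular markers and sorted. NPs were sorted as SOX2+ cells of 4 kinds: p0-1, with PAX6 and no NKX6.1, from 0 and 10 nM SAG; p2, with NKX6.1 and PAX6, from 10 and 100 nM; pMN, with OLIG2, from 100 and 500 nM; and p3, with NKX2.2 and no OLIG2, from 100 and 500 nM. NMPs were taken at day 3 before SAG (n = 3), and the gate used for them is not given in the sources used here. Samples of a cell type from different SAG concentrations were pooled, which gave 6 p0-1, 6 p2, 6 pMN and 5 p3 samples at day 4, 6, 6, 5 and 5 at day 5, and 5, 6, 4 and 4 at day 6. Per the study, replicates were independent differentiations of this line. Samples of a cell type from both SAG concentrations may share a differentiation, in which case p-values over them are too small, and all are cells of 1 line in culture. At day 6 the 4 pMN and the 4 p3 samples carried replicate numbers 2 and 3 only, each at 100 and 500 nM. Every day 6 result in these cell types therefore rests on 2 replicate numbers. The step from NMP to day 4 joins the end of bFGF and CHIR99021, the start of retinoic acid, the loss of NMP identity and, for most samples, the start of SAG, and these cannot be told apart here.

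The central 300 bases of 5 elements, read from the mouse reference genome (GRCm38.p6, plus strand), are shown because each stands for one of the patterns described below. The Etv4 -16.4 kb element (window chr11:101801535-101801834, intergenic) was open in NMPs and nearly closed at day 4. The Dusp6 +2.4 kb element (window chr10:99265448-99265747, in intron 2 of 2 of Dusp6) and the Etv5 +59.4 kb element (window chr16:22380058-22380357, intergenic, 1105 bp beyond the end of Etv5) opened from NMP to day 4. The Spry2 -23.9 kb element (window chr14:105920612-105920911, intergenic) was open until day 4 and mostly lost by day 6, and the Dusp4 -55.0 kb element (window chr8:34752457-34752756, intergenic) opened in p3. Capitals mark matches, on either strand, to SOX (CATTGT) or Capicua (TGAATGAA or TGAATGGA) motifs. Of the 5 motifs searched, the windows of the Etv4 and Spry2 elements held none.
Etv4 -16.4 kb: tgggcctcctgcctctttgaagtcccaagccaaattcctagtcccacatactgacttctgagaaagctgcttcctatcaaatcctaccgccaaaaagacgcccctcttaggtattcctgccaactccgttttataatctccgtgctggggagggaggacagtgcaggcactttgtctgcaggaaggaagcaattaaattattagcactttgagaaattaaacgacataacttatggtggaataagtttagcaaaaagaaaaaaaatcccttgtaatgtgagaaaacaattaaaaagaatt
Dusp6 +2.4 kb: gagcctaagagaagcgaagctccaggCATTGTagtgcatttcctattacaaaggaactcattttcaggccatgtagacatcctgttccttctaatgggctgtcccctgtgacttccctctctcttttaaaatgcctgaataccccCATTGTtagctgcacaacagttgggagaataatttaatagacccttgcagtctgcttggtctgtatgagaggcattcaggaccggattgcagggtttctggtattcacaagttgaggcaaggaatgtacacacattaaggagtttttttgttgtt
Etv5 +59.4 kb: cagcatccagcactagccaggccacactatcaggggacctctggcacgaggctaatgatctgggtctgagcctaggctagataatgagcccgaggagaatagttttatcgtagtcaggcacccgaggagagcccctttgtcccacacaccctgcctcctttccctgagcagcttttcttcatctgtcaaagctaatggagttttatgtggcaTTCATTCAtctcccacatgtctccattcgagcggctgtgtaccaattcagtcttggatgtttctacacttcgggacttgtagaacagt
Spry2 -23.9 kb: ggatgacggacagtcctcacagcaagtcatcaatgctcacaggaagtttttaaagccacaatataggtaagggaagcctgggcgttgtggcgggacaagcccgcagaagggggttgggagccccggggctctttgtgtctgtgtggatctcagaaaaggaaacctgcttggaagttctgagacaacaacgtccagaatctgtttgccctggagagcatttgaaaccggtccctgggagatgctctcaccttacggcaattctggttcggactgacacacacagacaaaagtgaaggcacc
Dusp4 -55.0 kb: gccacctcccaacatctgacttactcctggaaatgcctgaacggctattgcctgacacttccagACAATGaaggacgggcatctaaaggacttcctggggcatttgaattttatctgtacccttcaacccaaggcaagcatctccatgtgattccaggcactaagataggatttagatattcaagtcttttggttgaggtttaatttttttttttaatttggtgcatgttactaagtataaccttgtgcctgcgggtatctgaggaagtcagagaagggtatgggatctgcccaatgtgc

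Reads in elements ranged from 9298160 to 29985325 per sample (median 20254011), and the largest correlation between replicates, 0.9877, left none that looked like 1 library deposited again. Levels are given as normalized counts: reads divided by the size factor of the sample, recovered from the deposited values, which are variance-stabilized on a log2 scale (VST). The elements nearest the TSS of the NMP genes T, Cdx2 and Nkx1-2 had means of 1175, 3686 and 1492 in NMPs, against 219 to 276, 615 to 702 and 382 to 530 in the 4 cell types at day 4. In p0-1, p2, pMN and p3 at day 6, the Pax6 element measured 3889, 3387, 3208 and 1696, that of Irx3 3014, 2566, 2375 and 2086 and that of Nkx6-1 1431, 2431, 2586 and 2521. The Olig2 element reached 2325 in pMN and 1005 in p3 at day 6, and the Foxa2 element 277 and 1662. Both were also open in NMPs, at 1114 and 1494. Of the paraxial mesoderm genes, the Tbx6 element measured 778 in NMPs, 522 to 589 at day 4 and up to 857 (p0-1) at day 6, and the element nearest Msgn1, at -12699 bp, 25.4 in NMPs, 27.2 to 31.8 at day 4 and up to 121 (p3) at day 6. No element was annotated to Nkx2-2.

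Of the 131 elements, 94 (71.8%) were intergenic, 25 (19.1%) intronic and 7 (5.34%) at a promoter, against 44.2%, 41.1% and 7.41% of all elements. Their median distance from the TSS was 49531 bp (32610.5 bp for all) and their median width 1103 bp (883 bp). The spread of accessibility lay away from the start sites. Across the 25 conditions, the SD of the condition means on the VST scale had a median of 0.123 for the members at promoters and 0.619 for the members elsewhere. Over all elements the medians were 0.197 and 0.58.

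The 10 TSS elements were accessible in every group of samples. The Etv4 TSS element, at +0.1 kb, had the lowest ratios. It measured 2124, 2095 and 1696 in the 3 NMP samples, and at day 4 ranged from 1002 to 1444 in p0-1, 774 to 1145 in p2, 753 to 1183 in pMN and 665 to 946 in p3. The NMP samples were above every day 4 sample. The log2 ratios to NMP were -0.73, -1.08, -1.01 and -1.35 in p0-1, p2, pMN and p3, with adjusted p of at most 0.000534 by limma.

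The TSS elements of the other 9 genes moved less. Over all 10, the log2 ratios lay between -0.73 and 0.16 in p0-1, -1.08 and 0.00 in p2, -1.01 and 0.06 in pMN and -1.35 and 0.01 in p3, and none was called. In these comparisons the median log2 ratio of all tested elements was itself -0.39, -0.51, -0.49 and -0.46, so that, when samples were centred on their median, 7 of the TSS elements (Spry1, Spry2, Spry4, Dusp6, Etv1, Etv5 and Spred2) took a mean ratio above 0. The most open start site was that of Dusp4, a nuclear phosphatase, at 4328 ± 707 (SD, n = 3) in NMPs and 3132 ± 400.1 (SD, n = 6) in pMN at day 4. The least open was that of Spry1, at 614 ± 61.1 (SD, n = 3) and 524 ± 72.1 (SD, n = 6). These levels are per element and not per length, and the elements differ in width.

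**Figure D1:**
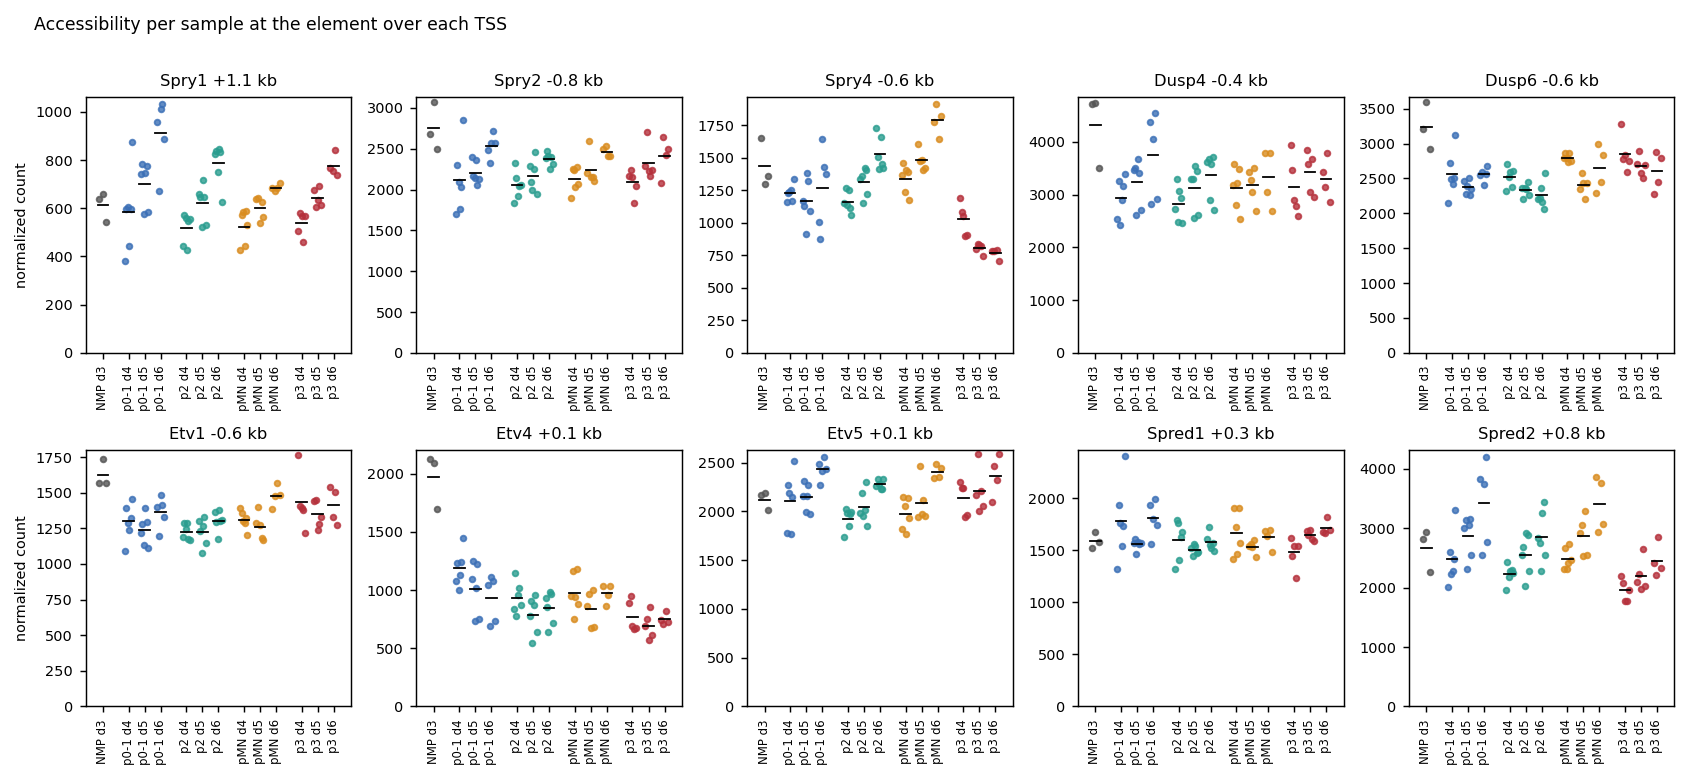
Normalized counts (linear axis from 0) at the TSS element of each of the 10 genes in every sample, by cell type and day, with a bar at the group mean. The Etv4 element is lower in every day 4 sample than in the 3 NMP samples, and the Spry4 element is lower in p3 than in pMN at day 6.

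From NMP to day 4 the distal elements moved in both directions. An element was called when its adjusted p was under 0.01 and its log2 ratio of means, with 1 added to each mean, was over 2 in either direction, among elements whose mean over the samples compared was above 100. In p0-1, 23 of the 53 members tested were called, 14 higher and 9 lower, against 20.6% of all tested elements called, 14.4% higher and 6.21% lower. In p2 it was 24 of 53, 13 higher and 11 lower, against 23.6%, 16.4% and 7.13%. In pMN it was 26 of 55, 14 higher and 12 lower, against 24.3%, 16.9% and 7.41%, and in p3 22 of 50, 11 higher and 11 lower, against 21.6%, 13.8% and 7.74%. The members' share lay above the background in each direction, and no test was made of that difference. Within 50 kb of a TSS, where 33 members were tested in each comparison, 12.1% of them were called higher, against 8.51%, 9.53%, 9.73% and 8.06% of all tested elements that close, and 15.2%, 21.2%, 24.2% and 21.2% lower, against 5.98%, 7.16%, 7.53% and 7.54%. The median log2 ratios of the tested members were -0.22, -0.26, -0.10 and -0.43. With samples centred on their median the member calls were 16 higher and 6 lower in p0-1, 14 and 6 in p2, 15 and 6 in pMN and 12 and 7 in p3. Of all tested elements, 19.8%, 22.4%, 23.2% and 20.2% were then called. With voom, a limma fit to the recovered reads, the member calls were 9 and 6, 14 and 7, 14 and 8, and 11 and 9. The shares of all were 15.1%, 22.6%, 23.5% and 20.6%. The 4 comparisons share the 3 NMP samples.

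Over the 4 comparisons 57 members were tested in at least 1, and 63 of the 131 passed the filter in none of the comparisons of the whole series. Of the 57, 10 were called higher in all 4 comparisons, 8 lower in all 4, 6 higher in 1 to 3, 5 lower in 1 to 3, and 28 in none. Dusp4, Etv5, Spred2, Spry2 and Spry4 each had elements that rose and elements that fell. Called elements of Dusp6 and Etv1 rose, those of Etv4 and Spred1 fell, and none of the 3 tested elements of Spry1 was called. The filter bears on these counts, since an element near 0 in one group passes only where the other is high. With a mean above 100 asked of both groups, 29, 30, 29 and 29 members were left in p0-1, p2, pMN and p3, of which 3, 5, 3 and 3 were called, each of them lower, against 2.98%, 3.51%, 3.7% and 3.1% of all such elements called in either direction. The members called higher had therefore all passed through their day 4 level.

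**Figure D2:**
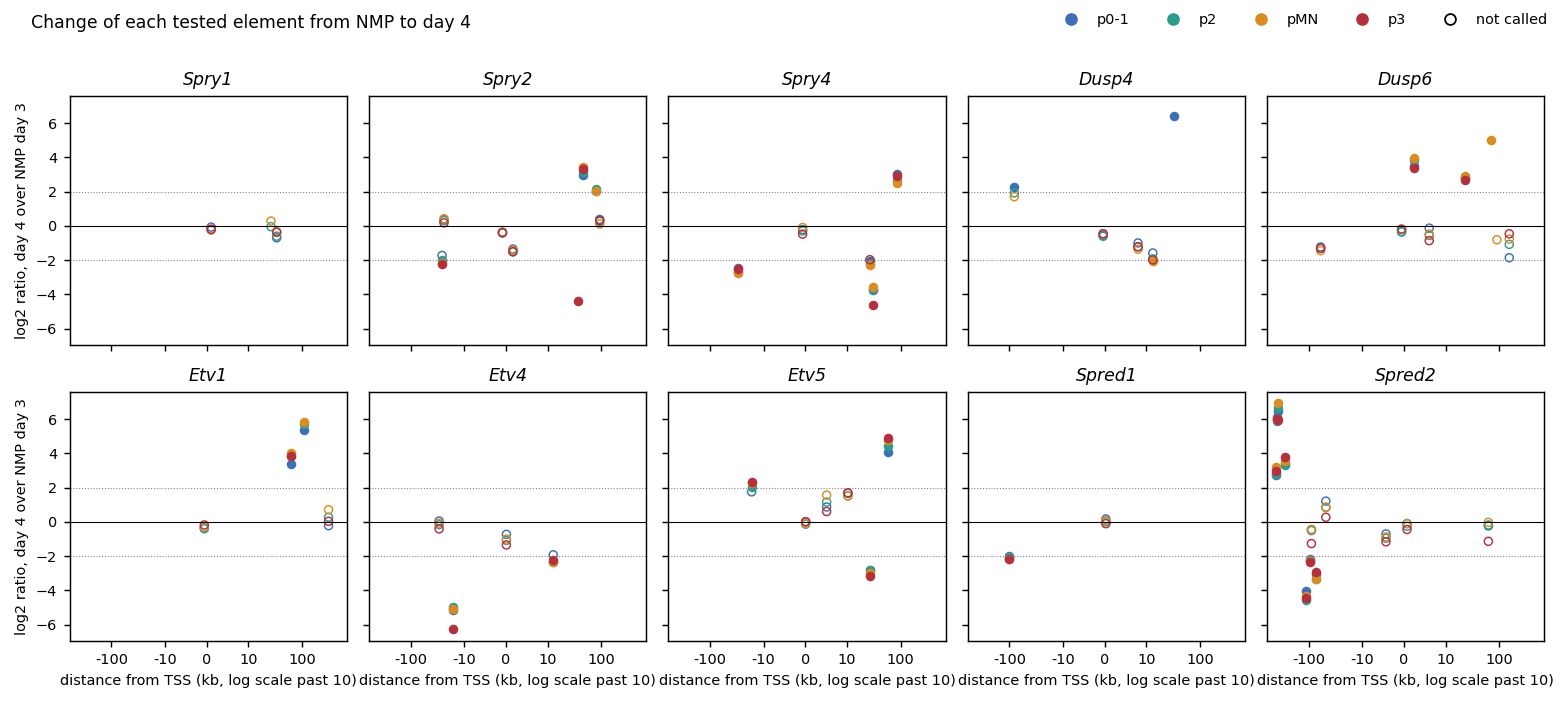
Log2 ratio of day 4 to NMP (vertical axis) for the tested elements of each gene by distance from the TSS (horizontal axis, kb), with filled points for called elements and dotted lines at 2 and -2. No TSS element is called. The called elements lie away from the start sites in both directions, with Dusp6 +2.4 kb close to its own start site.

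Sprouty genes encode inhibitors that are recruited to the activated receptor complex. At Spry4, the element at -30.6 kb was the most accessible of the gene's distal elements called lower. It measured 1162, 1121 and 938 in the 3 NMP samples. At day 4, its values ran from 145 to 232 in p0-1, 143 to 204 in p2, 132 to 185 in pMN and 141 to 254 in p3. Every NMP sample was above every day 4 sample, with log2 ratios of -2.47, -2.72, -2.77 and -2.54 and adjusted p of at most 5.3e-08. The difference in pMN was -2.68 ± 0.12 (SE) on the VST scale. The element at +30.6 kb fell further, from 406 ± 85.9 (SD, n = 3) in NMPs to means of 29.3, 29.9, 33.4 and 15.3, log2 ratios of -3.75, -3.72, -3.56 and -4.64. The Spry4 +85.8 kb element moved the other way, from 36.4, 28.3 and 28.0 in NMPs to means of 259, 198, 180.4 and 237 (log2 ratios 3.03, 2.64, 2.51 and 2.90). Another distal element, at 26779 bp, was called lower in p0-1, p2 and pMN, where the log2 ratios were -2.04, -2.24 and -2.28. All 3 calls were lost with samples centred on their median and with voom, and that in p0-1 also without replicate 1 or 2 and with the VST difference as the fold.

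Spry2, a second inhibitor of the family, likewise had elements that rose and elements that fell. The +45.3 kb element measured 81.2, 47.2 and 60.3 in NMPs and from 312 to 771 over the day 4 samples, with no overlap (log2 ratios 2.99, 3.13, 3.43 and 3.31; adjusted p at most 5.77e-08). The +81.1 kb element rose from 50.4 ± 2.84 (SD, n = 3) to 211 ± 83.2 (SD, n = 6) in p0-1, 229 ± 49.1 (SD, n = 6) in p2 and 213 ± 26.1 (SD, n = 6) in pMN. In p3 it measured 71.3 ± 13.1 (SD, n = 5) and did not pass the filter. Without replicate 1 the p0-1 ratio of this element, 2.05, was 1.85 and its call was lost, as it was with voom. With the VST difference as the fold the values were 1.75, 1.92 and 1.84, under the threshold. The element at -26029 bp went from 453 ± 102 (SD, n = 3) in NMPs to day 4 means of 136, 112, 99.1 and 97.6, and was called lower in p2, pMN and p3, though not with samples centred on their median or with voom. The call in p2 was also lost without replicate 2 or 3 and with the VST difference as the fold. The element at 37495 bp, among the 4 comparisons, was over the filter in p3 alone, with a log2 ratio of -4.38. Without replicate 1 it was also tested and called in p0-1 (-4.43), p2 (-4.67) and pMN (-4.49), so its fall was not particular to p3.

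The phosphatase genes differed. Dusp6 encodes a cytoplasmic phosphatase that is specific to ERK. Its intronic +2.4 kb element measured 36.4, 63.4 and 56.0 in NMPs and 249.9 to 821 in p0-1, 629 to 968 in p2, 659 to 998 in pMN and 432 to 653 in p3. The groups did not overlap (log2 ratios 3.51, 3.85, 3.95 and 3.37; adjusted p at most 7.1e-07; with voom the adjusted p in p0-1 was 0.0111 and that call was lost), while the start site, at -0.6 kb, had log2 ratios of -0.34, -0.36, -0.21 and -0.19. On the VST scale the pMN difference at +2.4 kb was 3.70 ± 0.16 (SE). The +23.1 kb element rose from 69.6 ± 27.4 (SD, n = 3) to means of 482, 502, 523 and 455. The +71.1 kb element was called in pMN, from 3.73 ± 4.24 (SD, n = 3) to 154 ± 44.9 (SD, n = 6), and did not pass the filter in the other cell types. Without replicate 2 it was also tested and called in p2 (log2 ratio 4.735), so its rise was not particular to pMN.

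At Dusp4, the +32.3 kb element, inside intron 23 of 26 of the neighbouring gene Tnks, measured 0, 4.05 and 0 in the 3 NMP samples and 101 at the lowest, 211 at the median and 266 at the highest in p0-1. The log2 ratio was 6.43, a value that depends on the 1 added to each mean. The p2, pMN and p3 means were 130.2, 61.6 and 97.8, and the element did not pass the filter in those comparisons. The +13.2 kb element, at the end of Dusp4, had log2 ratios of -1.59, -1.93, -2.03 and -1.99 and was called in pMN, though not without replicate 3, with samples centred on their median (-1.60), with voom (-1.80) or with the VST difference as the fold (-1.90). The element at -80766 bp was called higher in p0-1 (2.26), a call lost without replicate 1 or 2, with voom and with the VST difference as the fold.

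Of the ETS factor genes, Etv4 lost accessibility at each of its called elements. The Etv4 -16.4 kb element, whose sequence is given above, measured 208, 419 and 463 in NMPs. At day 4 it measured 6.17 at the lowest, 9.23 at the median and 12.7 at the highest in p0-1 and 6.45 at the lowest, 8.85 at the median and 13.8 at the highest in pMN, and no day 4 sample exceeded 13.8. The log2 ratios were -5.16, -5.00, -5.08 and -6.27 (adjusted p at most 5.35e-08), the lowest of any member in each comparison, and the difference in pMN on the VST scale was -4.12 ± 0.24 (SE). The next protein-coding gene on the far side of this element, Meox1, lies 75825 bp away. The Etv4 +12.7 kb element, in intron 8 of 12 of Etv4, went from 1259 ± 155 (SD, n = 3) to means of 329.6, 251, 246 and 269, and was called in p2, pMN and p3 (log2 ratios -2.32, -2.35 and -2.22), with -1.93 in p0-1. Centred on the median these 3 ratios were -1.87, -1.92 and -1.76, under the threshold, and with voom that in p3 was -1.99.

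Etv5 and Etv1, the other PEA3 genes, gained elements. Etv5 +59.4 kb measured 14.5, 10.8 and 9.69 in NMPs and from 101 to 557 over the day 4 samples, with log2 ratios of 4.08, 4.40, 4.75 and 4.87 (adjusted p at most 9.61e-07; VST difference in pMN 3.92 ± 0.19, SE). Etv5 -16769 bp was called higher in p2, pMN and p3, at 2.04, 2.24 and 2.31, and the call in p2 was lost without replicate 1 or 3 and with the VST difference as the fold. Its +27.1 kb element, in intron 6 of 12, moved the other way, from 245 ± 78.8 (SD, n = 3) to means of 33.7, 34.0 and 30.0 in p0-1, p2 and pMN (log2 ratios -2.83, -2.82, -2.99 and -3.19, p3 included). Etv1 +111.6 kb measured 0, 0 and 9.69 in NMPs and 202 at the lowest, 235 at the median and 269 at the highest in pMN, with log2 ratios of 5.38, 5.68 and 5.82 in p0-1, p2 and pMN. Etv1 +63.9 kb, in intron 8 of 12, rose from 24.7 ± 12.8 (SD, n = 3) to means of 265, 367, 412 and 362 (log2 ratios 3.37, 3.84, 4.01 and 3.82). With voom the p0-1 calls of Etv5 +59.4, Etv1 +111.6 and Etv1 +63.9 kb were lost, at adjusted p of 0.0271, 0.0624 and 0.0802.

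Spred proteins suppress the step from Ras to RAF. The Spred2 elements split by position. At -112.5, -94.7 and -74.5 kb they fell, from means of 526, 628 and 425 in NMPs to 25.3, 128 and 40.4 in pMN. The log2 ratios were -4.03, -4.57, -4.33 and -4.46 for the first, -2.19, -2.24, -2.29 and -2.38 for the second and -3.04, -3.37, -3.36 and -2.92 for the third in p0-1, p2, pMN and p3. Centred on the median, those of the -94.7 kb element were -1.77, -1.79, -1.86 and -1.91, under the threshold, and with voom those in p0-1 and p2 were -1.94 and -1.95.

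The 4 Spred2 elements that rose in all 4 comparisons lay further out, at -400.3, -392.7, -369.7 and -279.6 kb. The Spred2 -369.7 kb element measured 24.2, 8.09 and 15.1 in NMPs, and 988 to 1805 in p0-1, 1486 to 1951 in p2, 1831 to 2263 in pMN and 937 to 1182 in p3, log2 ratios of 6.45, 6.64, 6.94 and 5.95 (adjusted p at most 2.52e-10). The other 3 had log2 ratios of 2.72, 2.79, 3.17 and 2.97 (-400.3 kb), 6.15, 5.91, 6.01 and 6.00 (-392.7 kb) and 3.44, 3.35, 3.54 and 3.77 (-279.6 kb). None of them lay inside a protein-coding gene, and the next one on the side away from Spred2, Meis1, which encodes a homeodomain factor, lay 535059 bp from the -369.7 kb element. Spred1 had 2 tested elements. Its -102.4 kb element measured 286, 395 and 474 in NMPs and fell to means of 94.8, 91.0, 85.3 and 83.6, with log2 ratios of -2.01, -2.07, -2.16 and -2.19 just past the threshold of 2. Without replicate 3 they were -1.73, -1.74, -1.90 and -1.78, and none of the 4 was called, nor was any with samples centred on their median. With voom the calls in p0-1, p2 and pMN were lost. The Spred1 start site had log2 ratios of 0.16, 0.00, 0.06 and -0.11.

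**Figure D3:**
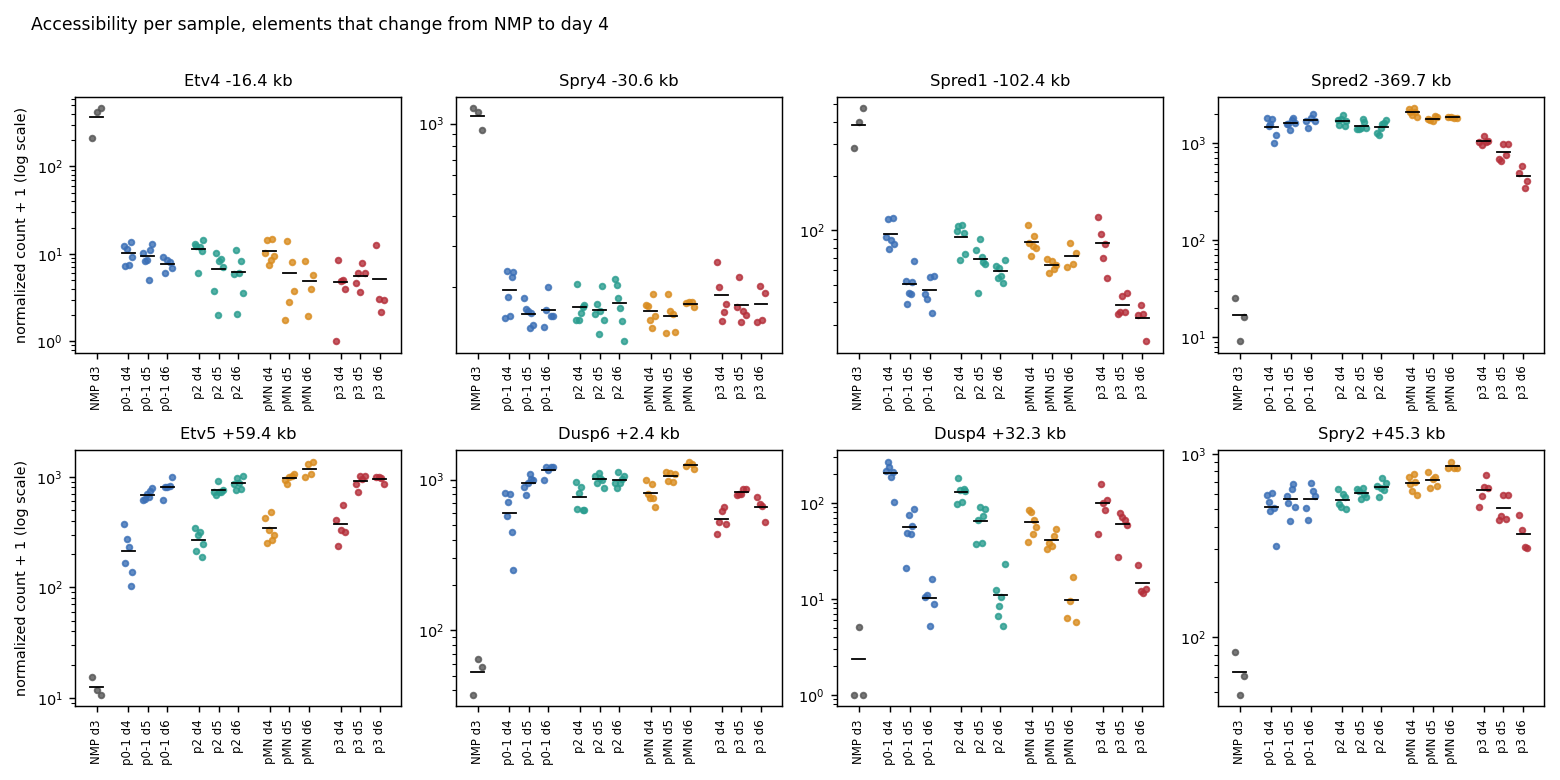
Normalized counts plus 1 (log axis) at 8 elements in every sample, by cell type and day, with a bar at the group mean. The elements Etv4 -16.4, Spry4 -30.6 and Spred1 -102.4 kb are highest in NMPs, and Spred2 -369.7, Etv5 +59.4, Dusp6 +2.4, Dusp4 +32.3 and Spry2 +45.3 kb are near their lowest there.

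Summed over a locus, these changes offset one another at some genes. The Spry4 elements together gave 3986 ± 380.5 normalized counts in NMPs (SD, n = 3) and 1976 ± 149, 1793 ± 107, 1955 ± 141 and 1727 ± 213 in p0-1, p2, pMN and p3 at day 4. The TSS element took 35.9% of the Spry4 sum in NMPs and 62.5%, 64.9%, 68.5% and 59.4% at day 4. The Etv4 sum went from 4324 ± 368 to 2026 ± 228, 1627 ± 179, 1683 ± 225 and 1389 ± 168. At both genes no day 4 sample reached the lowest NMP sample. The Dusp6 sum showed no such step, at 4369 ± 419 in NMPs and 4957 ± 369 in pMN at day 4, but its make-up moved, with the TSS element at 74.3% of the sum in NMPs, 56.7% in pMN at day 4 and 36.2% at day 6. The Etv1 TSS element likewise held 86.2% of its locus in NMPs and 51.8% in pMN at day 4. Spred1 differed, with 76.7% in NMPs and 80.0% in pMN. These sums run over the consensus elements in the deposited table of values and were given no test. That table leaves out 30 of the 161 elements annotated to these genes.

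From day 4 to day 6, within a cell type, fewer members moved past the threshold. The counts were 3 of 46 tested members in p0-1, 4 of 48 in p2, 4 of 49 in pMN and 4 of 46 in p3, against 9%, 10.1%, 9.92% and 9.13% of all tested elements, so the members' share lay near or below the background. They were 1 higher and 2 lower in p0-1 and 3 higher and 1 lower in each of p2, pMN and p3. Centred on the median they were 0 and 2, 3 and 2, 2 and 1, and 2 and 1, against 8.34%, 9.04%, 8.82% and 8.21% of all tested elements. With voom they were 1 and 2, 3 and 2, 2 and 1, and 3 and 3, against 8.92%, 10.1%, 9.27% and 8.02%. The median log2 ratios of members, 0.13, 0.24, 0.17 and 0.18, stood beside 0.23, 0.27, 0.25 and 0.18 for all tested elements. A neuronal marker also moved over this interval. The element nearest the Tubb3 start had means of 825, 844, 776 and 865 in p0-1, p2, pMN and p3 at day 4. At day 6 they were 1233, 2135, 1749 and 1362. This element was also open in NMPs, at 1722, so its level is not particular to neurons. The part of differentiating neurons in these results was not tested.

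Spry1, another Sprouty gene, had no called element between NMP and day 4 and gained 1 in each cell type by day 6. The Spry1 +26.6 kb element (chr3:37665650-37667388, mm10, intergenic) measured 43.6 at the lowest, 96.7 at the median and 128 at the highest in p0-1 at day 4 and 380.3, 314, 503, 424 and 466 at day 6. In pMN its range was 122 to 176 at day 4, and the 4 samples of day 6 gave 605, 607, 542 and 625. No day 4 sample reached a day 6 sample of its own type. The log2 ratios were 2.24 in p0-1, 2.38 in p2, 2.02 in pMN and 2.62 in p3, with adjusted p of 4.18e-06, 2.38e-08, 3.41e-09 and 3.77e-06. Without replicate 3 the ratio in pMN was 1.90 and its call was lost, and with samples centred on their median the calls in p0-1 (1.95) and pMN (1.68) were lost. The pMN call was also lost with voom (1.73) and with the VST difference as the fold (1.94). In NMPs the same element measured 120.0 ± 28.8 (SD, n = 3).

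The Spry2 -23.9 kb element closed over the same interval. It measured 869, 835 and 902 in NMPs and stayed at 1155 ± 52.9 (SD, n = 6) in pMN at day 4, where the day 5 mean was 529 ± 108 (SD, n = 5) and the 4 samples of day 6 gave 126, 307, 127 and 333. In p3 it went from 1036, 971, 1039.9, 911 and 942 at day 4 to 117, 127, 90.1 and 75.7 at day 6. The log2 ratios were -2.54 in p2, -2.37 in pMN and -3.24 in p3 (adjusted p at most 5.92e-07), and in pMN -1.82 without replicate 2, where the call was lost. In p0-1 the ratio was -1.55, short of the threshold. The start site of Spry2 had log2 ratios of 0.26, 0.21, 0.21 and 0.21 in p0-1, p2, pMN and p3.

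The Dusp6 -65.7 kb element, within exon 12 of 12 of Poc1b (chr10:99196729-99198369, mm10), rose in 3 cell types. In pMN it ran from 34.1 to 79.4 at day 4 and measured 453, 495, 511 and 639 at day 6. The log2 ratios were 2.62 in p2, 3.35 in pMN and 2.26 in p3 (adjusted p at most 8.86e-06), and with samples centred on their median the ratio in p3 was 1.997 and its call was lost. In p0-1 the mean went from 22.2 ± 6.65 (SD, n = 6) to 81.0 ± 14.9 (SD, n = 5), and the element did not pass the filter. The change was larger in pMN than in p0-1 by 1.67 on the VST scale (SE 0.287; adjusted p = 0.000561, interaction term in limma).

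The remaining calls lay at Spred2 and Dusp4. The Spred2 -331.6 kb element rose from 42.4 ± 12.1 (SD, n = 6) to 256 ± 111 (SD, n = 6) in p2 (log2 ratio 2.57) and from 54.7 ± 19.2 (SD, n = 6) to 376 ± 53.5 (SD, n = 4) in pMN (log2 ratio 2.76). In p0-1 its ratio was 1.71, under the threshold. In p3 the element did not pass the filter, but it was called without replicate 1 (2.29) or 3 (3.05). In p0-1, 2 elements that had opened by day 4 closed again. The Dusp4 +32.3 kb element fell to 9.42, 9.91, 4.23, 15.1 and 7.75 in the 5 samples of day 6 (log2 ratio -4.30, adjusted p = 1.11e-07). In p2, pMN and p3 it was not called over this interval. Its later levels there are not given here, so the fall is not read as particular to p0-1. The Spred2 -279.6 kb element fell from 325 ± 104 (SD, n = 6) to 69.6 ± 31.1 (SD, n = 5) (log2 ratio -2.21; -1.91 and not called without replicate 2). This fall was not particular to p0-1. In p3 the ratio was -1.52, under the threshold, and -2.35 and called without replicate 2. In p3, the Dusp4 -55.0 kb element rose, with a log2 ratio of 2.34.

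**Figure D4:**
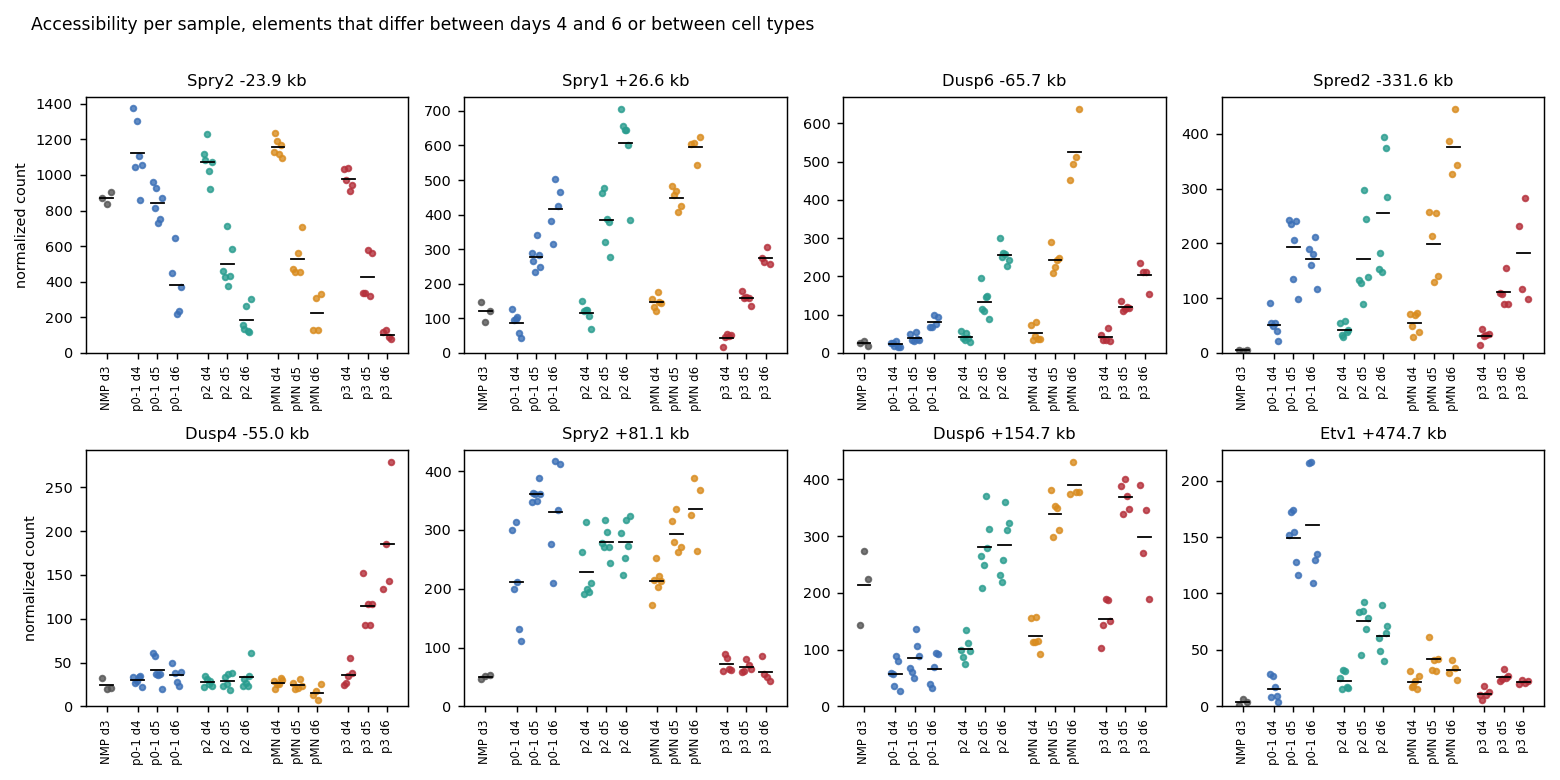
Normalized counts at 8 elements in every sample, by cell type and day, with a bar at the group mean. Spry2 -23.9 kb falls and Spry1 +26.6 kb rises from day 4 to day 6, and Dusp4 -55.0 kb is high in p3 at day 6.

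The neighbouring domains pMN and p3 come from the same SAG concentrations, and were compared on each day. At day 4 none of 47 tested members was called by limma (1.25% of all elements were), nor by voom on the recovered reads (1.31%). With either, 19 had an unadjusted p under 0.05. The share of all elements at that level is not given here, so this count is not read as a result about the members. At day 5 1 of 48 was called (5.66% of all) and at day 6 3 of 48 (11% of all), shares below the background. The element nearest Shh, a floor plate marker, moved with p3 at day 6 beside that of Foxa2, and measured 280 in p3 and 69.2 in pMN. In NMPs it measured 275, so its level is not particular to floor plate. The part of floor plate cells in the p3 values was not tested.

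Spry2 +81.1 kb was called at day 5 and day 6. It measured 315, 279.5, 336, 262 and 271 in the 5 pMN samples of day 5 and 59.2, 59.8, 80.0, 71.1 and 63.1 in the 5 p3 samples (log2 ratio -2.12; adjusted p = 2.17e-08), a call lost with the VST difference of -1.95 as the fold. At day 6 it measured 325, 388, 265 and 368 in pMN and 85.7, 54.9, 50.8 and 42.7 in p3 (log2 ratio -2.50; adjusted p = 1.76e-05). At day 4 the log2 ratio was already -1.57, with no overlap between the groups.

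The Dusp4 -55.0 kb element was the member most in favour of p3. At day 6 it measured 12.6, 17.8, 7.01 and 25.7 in pMN and 134, 185, 143 and 279 in p3 (log2 ratio 3.47; adjusted p = 4.46e-05), and 35.6 ± 10.3 (SD, n = 5) and 33.6 ± 14.1 (SD, n = 6) in p0-1 and p2. The Spred2 -369.7 kb element favoured pMN, with 1861, 1838, 1811 and 1776 against 491, 573, 342 and 402 (log2 ratio -2.01; adjusted p = 6.03e-06), and under the threshold without replicate 2 (-1.89), with samples centred on their median (-1.89) and with voom (-1.98). The difference between the day 4 to day 6 changes of p3 and pMN at this element was -1.02 on the VST scale (SE 0.15; adjusted p = 6.14e-05, limma).

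With a log2 threshold of 1 in place of 2, 15 of the 48 members differed at day 6, 11 lower and 4 higher in p3, against 25.9% of all tested elements, 15.5% lower and 10.4% higher. The lower ones were spread over Spry1, Spry2, Spry4, Dusp6, Etv1, Etv5 and Spred2, and the higher ones over Dusp4, Etv1 and Spry4. Of the 10 start sites, that of Spry4 was alone in passing this threshold. It measured 1778, 1909.8, 1647 and 1818 in pMN and 779.9, 781, 790.0 and 709 in p3 at day 6. No p3 sample came near a pMN sample, and the log2 ratio was -1.22 (adjusted p = 3.78e-06). It had been -0.38 at day 4, where the groups overlapped, and -0.87 at day 5. From day 4 to day 6 this element gained 0.416 in pMN and moved by -0.41 in p3 on the VST scale, a difference of -0.826 (SE 0.118; adjusted p = 5.0e-05, limma). The distal Spry4 +85.8 kb element had the opposite sign, at 93.2 ± 16.3 (SD, n = 4) in pMN and 199.5 ± 14.7 (SD, n = 4) in p3.

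**Figure D5:**
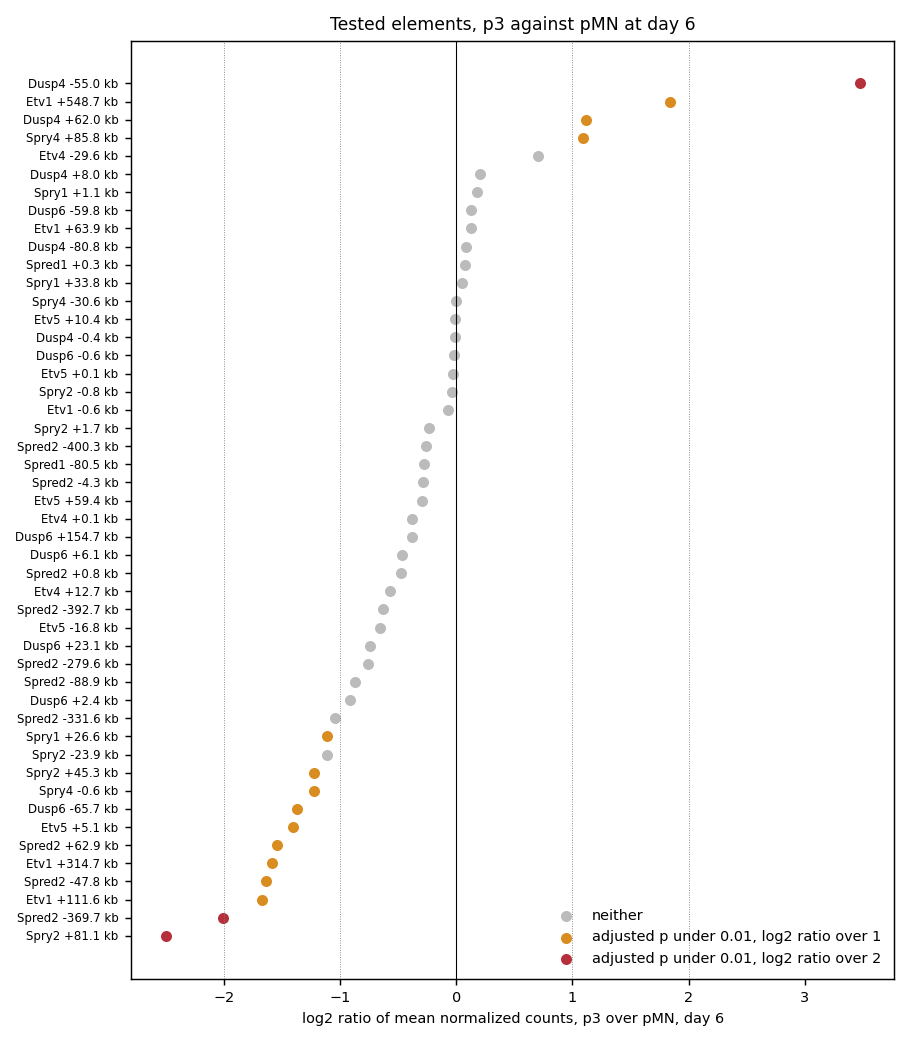
Log2 ratio of p3 to pMN at day 6 for the 48 tested members, in order of the ratio, in red where the adjusted p was under 0.01 and the log2 ratio over 2 in either direction, in orange where it was over 1, and in grey otherwise. The lowest value is that of Spry2 +81.1 kb (-2.50) and the highest that of Dusp4 -55.0 kb (3.47).

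Between p0-1 and pMN at day 6, 3 of 47 tested members were called, against 2.9% of all elements. Dusp6 -65.7 kb measured 67.1, 68.4, 98.9, 75.7 and 94.9 in the 5 p0-1 samples and 524 ± 80.1 in pMN (log2 ratio 2.68; adjusted p = 9.46e-06). Dusp6 +154.7 kb measured 38.8, 31.7, 70.2, 94.4 and 92.9 in p0-1 and 375, 431, 377 and 378 in pMN (log2 ratio 2.55; adjusted p = 0.000119). Both Dusp6 elements were higher in every pMN sample than in any p0-1 sample. Etv1 +474.7 kb was lower in pMN, at 29.6, 41.3, 34.1 and 23.4 against 215, 216, 109, 129 and 135 in p0-1 (log2 ratio -2.29; adjusted p = 0.000174). Without replicate 2, Dusp6 +154.7 kb and Etv1 +474.7 kb kept log2 ratios of 2.62 and -2.21 but had adjusted p of 0.0115 and 0.0195 and were not called. The call of Etv1 +474.7 kb was also lost with the VST difference of -1.94 as the fold.

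Within a cell type at day 5, the SAG concentration made no difference that passed the test, here with a log2 threshold of 1. None of 50 members was called in p0-1 between 0 and 10 nM, none of 48 in p2 between 10 and 100 nM, none of 48 in pMN and none of 46 in p3 between 100 and 500 nM, against 0.00318%, 0%, 0% and 0% of all tested elements. At an unadjusted p under 0.05 limma had 9, 4, 1 and 0 members, and voom called none and had 6, 8, 1 and 0. The shares of all elements at that level are not given here, so these counts are not read as a result about the members. The strongest was Dusp6 at 6080 bp in p0-1, at 509 ± 39.7 without SAG and 363 ± 36.2 at 10 nM (SD, n = 3 each; VST difference -0.47 ± 0.11, SE; adjusted p = 0.0821, limma). Without replicate 3, 2 members were called in p2, Spred2 -331.6 kb (log2 ratio 1.05) and Etv1 at 374820 bp (-1.42). Of all tested elements, 0.564% were then called over the 4 comparisons together, where pMN and p3 kept 1 sample at 500 nM. With a replicate block no member was called, against 0.663% of all tested elements. With 2 or 3 samples a group, smaller differences may have been missed.

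Other genes of the pathway, taken from lists, had called elements in both directions, to be read against the 20.6%, 23.6%, 24.3% and 21.6% of all tested elements called from NMP to p0-1, p2, pMN and p3. Of 7 FGF ligand genes with 33 elements, 16 elements were tested in p0-1, p2 and pMN and 14 in p3, of which 2, 2, 2 and 1 were higher than in NMPs and 1 was lower in each, 18.8%, 18.8%, 18.8% and 14.3% of those tested. The lower one was at the start of Fgf17, at 342 ± 60.5 in NMPs and 61.0 ± 8.38 in pMN (log2 ratio -2.47). The higher ones lay upstream of Fgf3, which encodes a secreted ligand, where the -23146 bp element went from 14.4 ± 1.19 to 439 ± 142 in pMN (4.83). Of 14 genes for receptors and transducers, 13 had elements, 107 in all, with 7, 7, 6 and 7 higher and 1, 1, 1 and 2 lower of 40, 39, 33 and 34 tested, or 20%, 20.5%, 21.2% and 26.5%. The shares of ligands lay below those of all elements in each comparison, and those of receptors and transducers above it in p3 alone. Fgfr2, which encodes an FGF receptor, had several of the higher ones, among them 35376 bp, from 5.93 ± 3.18 in NMPs to 335 ± 93.3 in pMN (5.60).

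Of 12 other feedback and target genes with 110 elements, 6, 7, 6 and 4 were higher and 1, 3, 3 and 5 lower of 32, 32, 29 and 30 tested, or 21.9%, 31.2%, 31% and 30%. The Il17rd element at 31924 bp fell from 368 ± 23.5 to 63.4 ± 4.28 in pMN (-2.52), and that of Spred3 at 5547 bp from 626 ± 49.6 to 129 ± 15.9 (-2.27). Il17rd encodes the membrane inhibitor Sef. From day 4 to day 6 another Il17rd element, at 11845 bp, rose in all 4 cell types, in pMN from 87.0 ± 6.15 to 676 ± 236 (2.94). Over that interval 9%, 10.1%, 9.92% and 9.13% of all tested elements were called in p0-1, p2, pMN and p3. For these genes the counts were 4, 3, 2 and 3 higher and 1, 0, 0 and 0 lower, or 14.3%, 8.82%, 5.71% and 10% of those tested. For ligands they were 0, 1, 1 and 0 higher and 0, 1, 0 and 1 lower (0%, 14.3%, 7.14% and 10%). For receptors and transducers they were 0, 0, 1 and 1 higher and 1, 2, 1 and 2 lower (2.56%, 5.56%, 5.41% and 8.57%). The median log2 ratios from NMP to pMN were -1.05, -0.42 and -0.53 for the 3 lists, against -0.49 for all tested elements.

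Motifs were counted in the central 300 bases of every element, on both strands. ETS (CCGGAAG) was present in 3 of 131 members (2.29%; 2.79% of all elements), Capicua (TGAATGAA or TGAATGGA), the site of a repressor that ERK inactivates, in 11 (8.4%; 4.01%), AP-1 (TGANTCA) in 14 (10.7%; 9.72%), TCF/LEF (CTTTGAT) in 6 (4.58%; 5.04%) and SOX (CATTGT) in 35 (26.7%; 21.1%). Of the 14 members called higher from NMP to pMN, 3 held a Capicua match and 3 a SOX match. Over all 5328 elements called higher the shares were 6.08% and 34.8%. Of the 12 called lower, 1 held a Capicua match and 3 a SOX match, against 1.97% and 10.4% of the 2339 elements called lower. ETS matches were absent from both groups of members, in which AP-1 was found in 2 and 2. In the table of RefSeq promoters (250 bases before to 50 after a start), 7 of the 10 genes had 9 promoters, and 0 of the 9 held any of the motifs, against 8.86%, 2.47%, 7.81%, 3.73% and 12.6% of 32851 promoters for ETS, Capicua, AP-1, TCF/LEF and SOX. A match is a stretch of letters and was not tested as a binding site.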

How the data were processed

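ATAC-seq of sorted NMPs and NPs was analysed in 67 samples, 25 conditions of cell type, day and SAG concentration. The reads had been processed by the authors with nf-core/atacseq (release 1.2.0), aligned to mm10, and turned into consensus peaks by MACS2 and annotated by HOMER. The deposited values are on a log2 scale: the authors' DESeq2 variance-stabilizing transformation (VST) of counts normalized by size factors. Versions of the other tools are not given in the sources used here. Normalized counts and reads were recovered by inverting the VST. Below 1000 reads, 100% of values came out within 0.01 of a whole number, so recovery was exact at that tolerance. Size factors were 0.495 to 1.502, so 1 normalized count stood for that many reads, and reads in elements were 9298160 to 29985325 per sample. Low levels therefore rest on few reads. Intergenic, intronic and promoter classes are those of the HOMER annotation. Groups came from the sample titles. In 15 samples the title and the description carry different replicate numbers, and the number in the title was used.

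Each comparison was fitted across all elements with a mean above 100 normalized counts over the samples compared, by limma 3.58.1 (R 4.3.3, trended variances, two-sided) on VST values, with Benjamini-Hochberg adjustment over all of them. Elements with an adjusted p under 0.01 and a log2 ratio of means, 1 added to each, over 2 in either direction (1 between SAG concentrations) were called. Changes from day 4 to day 6 were compared between cell types by an interaction term. The fits were tested on simulated data. Alternatives were a log2 threshold of 1, no filter, a replicate block, centring on the median, voom on the recovered reads, the VST difference as the fold, elements within 50 kb of a TSS, and leaving out each replicate number.

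Same-numbered replicates deviated together (lowest correlation of deviations from the condition means over 0.1 in every pair) in pMN from day 4 to day 6 (0.307), between pMN and p3 at day 5 (0.403) and day 6 (0.437) and between p0-1 and pMN at day 6 (0.565). In the other comparisons the median correlation of same-numbered pairs was also above that of the rest, though some single pairs fell under 0.1. This hint comes from the data, and in conditions with 2 replicates the deviations mirror each other by construction.

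Members, pathway lists and motifs were chosen with earlier results of these data known. The text names, for each gene, the TSS element, the elements with the largest increase and decrease from NMP to day 4, and the element with the largest ratio between p3 and pMN at day 6 if over 1, and every member called where 5 or fewer were. Members called in all 4 comparisons with NMPs, the other elements given by their distance in bp, and the interaction tests were added after values were seen. Sequences were read from GRCm38.p6, the assembly of mm10, with pysam 0.24.0. Of 6548 promoter elements, 6286 (96%) overlapped the RefSeq promoter of their gene. Another marker from the list of cell type markers is not reported here. Figures were drawn with matplotlib 3.10.9.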

Additional observations from a re-analysis of the deposited data

Results flagged for a closer look

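Of 124 groups of 4 to 10 samples at the named elements, 5 had a highest or lowest sample that stood apart from the rest by Dixon's criterion, where chance gives about 1 in 20. At Spry4 -30.6 kb, p2 at day 4 reached 204 normalized counts in the 10 nM replicate 2, with 143 to 165 in the other 5. At Spred2 -94.7 kb, p0-1 at day 4 reached 179 in its own 10 nM replicate 2, a different sample, with 116 to 135 in the others. Dusp6 +154.7 kb measured 431 in the 100 nM replicate 3 of pMN at day 6, with 375 to 378 in the other 3. Spry1 +26.6 kb was low in 2 groups, at 385 in the 100 nM replicate 3 of p2 at day 6 (600.5 to 707 in the others) and at 18.2 in the 100 nM replicate 1 of p3 at day 4 (45.5 to 53.9 in the others).

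The change from day 4 to day 6 at Etv1 +548.7 kb differed between pMN and p3 by 2.03 on the VST scale (SE 0.442; adjusted p = 0.0021, interaction term in limma), with a change of -0.65 in pMN and 1.38 in p3. Over all elements, 592 of 31716 tested passed the same thresholds.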

How the results depend on the processing

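Without the filter on the mean, more members were called: 46, 55, 57 and 51 of 131 from NMP to p0-1, p2, pMN and p3 (27.5%, 32.1%, 32.6% and 29.8% of all elements), 10, 14, 14 and 15 from day 4 to day 6 in these types (10.7%, 13.3%, 12.7% and 13% of all), and 1, 5 and 10 between pMN and p3 at days 4, 5 and 6 (1.97%, 8.87% and 13.4%). A log2 threshold of 1 gave 15, 18, 14 and 17 from day 4 to day 6 (21.7%, 24.8%, 25% and 24% of all tested elements), 3, 6 and 15 between pMN and p3 (7.96%, 19.1% and 25.9%), and 6 between p0-1 and pMN (12.3%). Keeping elements within 50 kb of a TSS, which leaves fewer members, gave 9, 11, 12 and 11 from NMP to day 4 (14.5%, 16.7%, 17.3% and 15.6% of all elements that close), 2, 2 and 2 from day 4 to day 6 in p2, pMN and p3 (6.22%, 6.35% and 5.75%), 0 and 0 between pMN and p3 at days 5 and 6 (3.7% and 7.34%), and 0 between p0-1 and pMN (1.82%). With voom, 15 were called from NMP to p0-1 in place of 23 (15.1% of all in place of 20.6%), and with the VST difference as the fold 0 between pMN and p3 at day 5. The cause of these last 2 was not tested.

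Leaving out each replicate number in turn gave 22 to 23, 21 to 25, 23 to 26 and 20 to 24 calls from NMP to p0-1, p2, pMN and p3. Of all tested elements, 19.5% to 21.9%, 22.9% to 24.5%, 24% to 24.8% and 20.6% to 22.6% were called. From day 4 to day 6 it gave 2 to 5 in p0-1, 4 to 6 in p2, 3 to 5 in pMN and 4 to 5 in p3. The shares of all were 7.91% to 10.6%, 9.64% to 11%, 9.2% to 11.6% and 8.85% to 10.4%. It gave 0, 1 and 3 to 4 between pMN and p3 at days 4, 5 and 6 (0.881% to 1.71%, 5.29% to 6.5% and 9.56% to 14% of all). Between p0-1 and pMN it gave 1 to 3 (2.1% to 3.3%). Between SAG concentrations it gave 0 to 2, with the share of all given above. Without replicate 1, the 5 calls in p0-1 from day 4 to day 6 included Etv5 +59.4 kb and Spred2 -331.6 kb. With the replicate block, the calls were the same members in each of the 12 comparisons of cell types and days (23, 24, 26 and 22 from NMP to day 4). In the comparisons where not every same-numbered pair deviated together, the lowest correlation lay between -0.348 and 0.039. The median of same-numbered pairs was still above that of the other pairs, as between pMN and p3 at day 4 (0.449 against -0.163). Pairing by number may hold there as well.

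Mean log2 ratios of start sites from NMP to day 4 changed sign when samples were centred on their median, for Spry1 (0.24), Spry2 (0.04), Spry4 (0.16), Dusp6 (0.16), Etv1 (0.13), Etv5 (0.37) and Spred2 (0.21), with voom for Spry1 (0.10), Spry4 (0.01), Dusp6 (0.02), Etv5 (0.23) and Spred2 (0.07), and when a replicate number was left out for Etv5 (-0.12 to 0.02) and Spred1 (-0.03 to 0.09). Spry1 +33.8 kb did so when centred (0.03 in pMN, 0.10 in p3) and with voom in p3 (0.01). Of 919 recomputations of 134 values of named elements, 842 kept direction and side of the threshold, 55 fell below it, 5 passed it and 17 changed sign. With voom, the calls in p0-1 of Dusp6 +2.4 kb (3.71), Etv5 +59.4 kb (4.28), Etv1 +111.6 kb (6.61) and Etv1 +63.9 kb (3.56) were among those that fell below it, with an adjusted p over 0.01. Depth limits elements near 0, whose ratios depend on the 1 added.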
